A study of Homo sapiens and Mus musculus with 5 samples.

Results

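The SNPs described here are the 10 that lie from position 102527602 to position 103300139 of chromosome 10, a schizophrenia-associated locus that holds AS3MT, CNNM2 and NT5C2. They were chosen as all SNPs of the study inside a window of that chromosome and are 10 of its 347 SNPs. The rule used position and no measured value, but earlier results of these data were known at that choice. Each SNP was cloned in up to 3 overlapping fragments, which held 50 bases before the SNP and 150 after it, 100 on each side, or 150 before and 50 after (named below by the number of bases in front). Of 30 possible fragments, 28 were listed, out of 984 in the series. The 2 not listed are the central fragments, with 100 bases in front, of the SNPs at 102852578 and 103300139. The tables number the alleles 1 and 2, and their bases are not used here. Of the 56 possible alleles of these fragments, 40 had counts in at least 1 line and 32 in all 4. Both alleles of a fragment were measured in at least 1 line for 12 fragments and in all 4 lines for 10, so 16 fragments have no allelic comparison.

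The fragments were tested by STARR-seq, in which a DNA fragment cloned into the transcribed part of a reporter plasmid promotes its own transcription, so that its abundance in RNA, relative to the plasmid DNA, reads out its regulatory activity. The plasmid library was transfected into 4 cell lines, given below in a fixed order: Neuro-2a (neuroblastoma, mouse), then SH-SY5Y (neuroblastoma, human), then HEK-293T (embryonic kidney, human), then PC-12. PC-12 derives from a pheochromocytoma of the rat, although its label names the mouse. All 4 received the same library and no further treatment is given in the labels. Neuro-2a, SH-SY5Y and HEK-293T had 3 RNA libraries each, PC-12 had RNA replicates 1 and 3, and all lines were set against the same 3 libraries of plasmid input. A fragment on a transfected plasmid is read outside its chromosome, and the human fragments were read in rodent cells in Neuro-2a and PC-12.

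The locus holds genes of varied function. SUFU encodes a negative regulator of Hedgehog signalling, WBP1L a membrane protein that binds WW domains, and BORCS7 a subunit of the BORC complex, which positions lysosomes. AS3MT methylates arsenic, CNNM2 takes part in magnesium transport across the cell membrane, NT5C2 is a cytosolic nucleotidase that acts on purine nucleotides, and PCGF6 is a subunit of a Polycomb repressive complex. INA, next to PCGF6, encodes the neuronal intermediate filament protein alpha-internexin. A distal regulatory element may act on a gene other than the nearest, so the gene beside a SNP is given here as a position and not as a target.

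Positions are as the tables give them. Their genome build was not given in the sources used here. They were set against RefSeq genes of GRCh38.p14, a match that holds only if that is their build: 2 SNPs of the series on chromosome 20 lie beyond the end of that chromosome in GRCh37. In genome order, SUFU contains the SNPs at 102527602 and 102533370, and WBP1L the one at 102776603. The SNP at 102852578 lies between CYP17A1 and BORCS7, 1681 bases from BORCS7. The SNP at 102866129 lies between BORCS7 and AS3MT, 1168 bases from BORCS7 and 3341 bases from AS3MT, and the one at 102869116 also lies between them, 354 bases from AS3MT. Both are inside the noncoding readthrough gene BORCS7-ASMT. CNNM2 contains 103033891 and 103034147, which are 256 bases apart. If the front is the side of lower coordinates, the 50-base fragment of the first shares 45 bases with the 150-base fragment of the second. NT5C2 contains 103146454. The SNP at 103300139 lies between INA and PCGF6, 2657 bases from PCGF6. BORCS7, AS3MT and PCGF6 therefore contain none of the SNPs.

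One fragment of the locus reaches a promoter window, if the build is GRCh38 and the front is the side of lower coordinates. The fragment of 102869116 with 50 bases in front of the SNP would share 47 bases with the 250 bases before the start of AS3MT. The shared bases lie at the end of this window farthest from that start. The 250 bases before that start (GRCh38.p14, RefSeq, chr10:102869220-102869469, plus strand) are shown because no other promoter window of the RefSeq table meets a fragment of the locus, with the shared bases in capitals.
AS3MT promoter: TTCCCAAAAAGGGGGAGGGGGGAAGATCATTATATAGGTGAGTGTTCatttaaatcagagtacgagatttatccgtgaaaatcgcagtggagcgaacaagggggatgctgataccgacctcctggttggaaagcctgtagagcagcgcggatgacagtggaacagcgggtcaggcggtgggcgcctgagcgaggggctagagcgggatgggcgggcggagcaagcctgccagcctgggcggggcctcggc
The window has 59.2% G and C and the shared stretch 46.8%, against a median of 58.0% over the 35116 promoter windows of the same length. Motifs were searched on both strands. The GC box (GGGCGG) matches 3 times in the window and 0 times in the shared stretch, and 42.6% of all windows hold it. The CCAAT box (CCAAT) matches 0 times and is held by 32.0% of all windows. The TATA box (TATAAA) matches 0 times and is held by 10.7%, and the E-box (CACGTG) matches 0 times and is held by 6.35%. The fragment therefore carries the first stretch of this window and not its GC boxes. The activity of this fragment is given below with its neighbours.

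Totals of the libraries, summed over all fragments, were 5875437 to 10201521 reads for RNA and 6380682 to 8421333 reads for input. The locus alleles had a median input count of 2527 to 3033 by line, against 3453 to 3832 for all alleles. Levels below are in CPM, read counts brought to a common library size with scaling by the trimmed mean of M values. Some RNA counts were 0 in 1 library while the others of the line were well covered: 8 of 37 locus alleles in HEK-293T replicate 2, 5 of 40 in PC-12 replicate 3 and 0 to 3 alleles in each of the other RNA libraries. Of all alleles, 16.4% were at 0 in HEK-293T replicate 2, 9.85% in PC-12 replicate 3 and 1.02% to 6.80% in the other RNA libraries. In HEK-293T replicate 2 a count of 0 allows up to 0.395 CPM, for counting error only. Replicate 1 stood apart in the 3 lines with 3 RNA libraries: across 27 to 33 locus alleles that share a line, the log2 ratios of RNA to input had an r of 0.69 to 0.87 between replicates 2 and 3, while r was 0.18 to 0.55 between replicate 1 and either of the others over 28 to 36 alleles. In PC-12, r between replicates 1 and 3 was 0.36 over 35 alleles, which does not show which of them differs. Results are also given without replicate 1 where a line has 3. Replicate 1 was singled out by these same ratios, so a lower p without it adds no separate evidence.

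The first comparison asked which alleles gave more or less RNA than their share of the input. Activity is log2 of RNA over input, centred on the typical allele of a library. It was tested with edgeR (quasi-likelihood), with p adjusted by Benjamini-Hochberg over all alleles of a line and called at 0.05. The alleles called were 1 inside NT5C2 and 1 beside PCGF6 above input, and 1 between BORCS7 and AS3MT and 1 inside CNNM2 below input. In Neuro-2a 3 of 32 locus alleles passed, 2 above input and 1 below, against a background of 5.78% of all alleles in either direction, 4.08% above and 1.70% below. In SH-SY5Y 2 of 37 passed, both below input, against 12.9% of all alleles in either direction, 7.43% above and 5.51% below. In HEK-293T edgeR called 0 of 37, against 2.37% of all alleles (1.35% above, 1.02% below). In PC-12 it called 0 of 40, against 10.4% (5.64% above, 4.77% below). The locus share was above the background in Neuro-2a and below it in the other lines, on counts of at most 3. At an unadjusted p under 0.05 the locus had 10, 9, 6 and 9 alleles in the 4 lines in order, against 25.7%, 34.3%, 23.1% and 31.4% of all alleles. DESeq2 called 11, 8, 5 and 14 locus alleles, against 29.5%, 30.7%, 24.0% and 39.8% of all alleles, and limma-voom 2, 2, 0 and 2, against 7.61%, 11.9%, 4.04% and 13.7%. Without replicate 1, edgeR called 13 of 32, 12 of 37 and 6 of 37 in the 3 lines with 3 RNA libraries. The same fits called 41.3%, 54.9% and 31.8% of all alleles, so passing without replicate 1 was common across the whole library. With any 1 input library left out, none of the locus calls passed, and all alleles together then had 0 calls in Neuro-2a, HEK-293T and PC-12 and 3 of 1562 in SH-SY5Y. The median log2 activity was -0.29, 0.04, 0.02 and 0.03 for the locus alleles in the 4 lines in order, against 0.01, -0.01, -0.11 and -0.01 for all alleles. Every RNA library lay above every input library for 7, 4, 5 and 9 locus alleles in the same order of lines, against 20.5%, 20.7%, 16.6% and 26.2% of all alleles. Every RNA library lay below every input library for 13, 10, 5 and 11, against 24.7%, 28.7%, 26.9% and 33.5%.

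Inside NT5C2, allele 1 of 103146454 in the central fragment gave 1712, 2718 and 2386 CPM in the 3 Neuro-2a RNA libraries, against 557, 584 and 565 CPM in the input libraries. All 3 RNA libraries lay far above the input and the input libraries were close to each other. Its activity in Neuro-2a was 2.00 ± 0.21 on the log2 scale (SE, 3 RNA and 3 input libraries), a 3.99-fold ratio of RNA to input with an edgeR adjusted p of 0.0101, and it ranked 86th of 1471 alleles. In SH-SY5Y the same allele gave 363, 326 and 748 CPM in RNA against 560, 586 and 565 CPM in input. In HEK-293T it gave 433, 758 and 513 CPM in RNA against 582, 609 and 581 CPM in input, and in PC-12 565 and 623 CPM in RNA against 554, 584 and 560.5 CPM in input. RNA and input overlapped in these 3 lines, with log2 activities of -0.25, -0.06 and 0.07 and edgeR adjusted p of 0.669, 0.922 and 0.731. The SH-SY5Y value depended on replicate 3. Without it the log2 activity was -0.69 (edgeR adjusted p = 0.0419, with 12.8% of all alleles called), against -0.07 without replicate 1 and -0.03 without replicate 2. The call in Neuro-2a held when each RNA replicate was left out (adjusted p 0.00034 to 0.0205, 0.00034 without replicate 1). Without replicate 1, 2 or 3, the same fits called 41.3%, 8.36% and 10.3% of all alleles. It missed the threshold at 0.0541 in a limma fit that took RNA counts of 0 as missing, and at 0.117 to 0.120 with any 1 input library left out, where the log2 activity was 1.98 to 2.02.

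The difference between the NT5C2 fragments was not tested, since no allele of this SNP was present in all 3. Allele 1 in the fragment with 50 bases in front had log2 activities of 0.13, -0.10, -0.05 and -0.46 in the 4 lines in order. Allele 2 in the fragment with 150 bases in front had 0.79, -0.04, 0.46 and 0.48 in the same order. Allele 2 in the 50-base fragment had 2.38 in Neuro-2a, as high as the central fragment, and 2.27, 1.86 and 1.86 in the other lines. In none of these did edgeR make a call, with adjusted p of 0.0576 to 0.242 for the last and of at least 0.199 for the others. The central fragment had counts for allele 1 only and the 150-base fragment for allele 2 only, so placement and allele cannot be told apart between them.

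Beside PCGF6, allele 1 of 103300139 stood above input in both of its fragments. In the fragment with 50 bases in front it gave 646, 1424 and 2022 CPM in Neuro-2a RNA against 279, 263 and 277 CPM in input. All 3 RNA libraries were above the input, replicate 1 the lowest. Its log2 activity was 2.32 ± 0.44 (SE, 3 RNA and 3 input libraries; edgeR adjusted p = 0.0422), a 4.99-fold ratio. The other lines had values of like size that did not pass. In SH-SY5Y the RNA libraries had 222, 1447 and 1202 CPM against 280, 264 and 277 CPM in input, a log2 activity of 1.81 ± 0.66 (adjusted p = 0.120). In HEK-293T they had 402, 2095 and 1009 CPM against 292, 274 and 285 CPM, 2.04 ± 0.60 (adjusted p = 0.127), and in PC-12 439 and 1787 CPM against 278, 263 and 275 CPM, 2.03 ± 0.62 (adjusted p = 0.118). Replicate 1 was the lowest RNA library in each line and lay below every input library in SH-SY5Y. Without it, where 41.3%, 54.9% and 31.8% of all alleles passed, edgeR's adjusted p was 0.00129 (Neuro-2a), 0.000322 (SH-SY5Y) and 0.00939 (HEK-293T), and the log2 activities were 2.63, 2.30 and 2.45. The Neuro-2a call was lost without replicate 2 (adjusted p = 0.0807) or replicate 3 (0.0539), with limma-voom (0.0738) and with RNA counts of 0 as missing (0.0689).

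In the fragment with 150 bases in front, the same allele gave 455, 2592 and 3119 CPM in Neuro-2a RNA against 448, 427 and 428 CPM in input. SH-SY5Y RNA had 619, 2395 and 2824 CPM, HEK-293T RNA 608, 2163 and 1740 CPM and PC-12 RNA 371 and 1801 CPM, against input of 424 to 468 CPM. Replicate 1 again lay near the input and the other replicates far above it. The log2 activities were 2.24, 2.16, 1.74 and 1.33 and no edgeR adjusted p passed (0.119, 0.0573, 0.112 and 0.261). Allele 2 of the same SNP ran between -0.96 and 1.14 over both fragments and the 4 lines, with adjusted p of at least 0.118.

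Between BORCS7 and AS3MT, allele 1 of 102866129 in the central fragment lay below input in every library. It gave 50.9, 82.2 and 165 CPM in Neuro-2a RNA against 758, 713 and 716 CPM in input, a log2 activity of -2.88 ± 0.50 (SE, 3 RNA and 3 input libraries; edgeR adjusted p = 0.0321). In SH-SY5Y it gave 238, 98.0 and 108 CPM in RNA against 761, 715 and 715 CPM in input, -2.30 ± 0.40 (adjusted p = 0.0267). RNA was thus 0.136 of input in Neuro-2a and 0.203 of input in SH-SY5Y, with no overlap between RNA and input libraries. HEK-293T RNA had 208, 0 and 31.1 CPM against 792, 743 and 736 CPM in input, and PC-12 RNA had 234 and 1.78 CPM against 754, 713 and 710 CPM. The RNA libraries in these 2 lines were also below every input library and spread widely, and their log2 activities of -3.25 and -2.62 had adjusted p of 0.389 each. The other alleles and fragments of this SNP had log2 activities between -4.12 and -0.87. The lowest, allele 2 of the 50-base fragment in PC-12, had RNA counts of 69 and 0 (edgeR adjusted p = 0.274). All 9 values of the SNP over alleles, placements and lines were below 0, each with all its RNA libraries below all input libraries. Of all alleles, 24.7%, 28.7%, 26.9% and 33.5% lay wholly below input in the 4 lines in order. The 9 values are not independent, since all were set against the same input libraries. The Neuro-2a call was lost without replicate 2 (adjusted p = 0.0746), and the SH-SY5Y call without replicate 2 (0.0509) or replicate 3 (0.0536). Without replicate 1 the edgeR adjusted p was 0.0087 in Neuro-2a and 0.000114 in SH-SY5Y, where 41.3% and 54.9% of all alleles passed.

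Inside CNNM2, allele 1 of 103033891 in the fragment with 150 bases in front also lay below input. It gave 137, 111 and 49.0 CPM in SH-SY5Y RNA against 522, 473 and 501 CPM in input, a log2 activity of -2.33 ± 0.43 (SE, 3 RNA and 3 input libraries; edgeR adjusted p = 0.0281). In Neuro-2a the RNA libraries had 279, 162 and 287 CPM against 519, 472 and 502 CPM in input. HEK-293T had 297, 160 and 139 CPM in RNA against 542, 491 and 516 CPM in input, and PC-12 had 205 and 63.0 CPM in RNA against 517, 471 and 498 CPM. All RNA libraries of the 4 lines were below all input libraries. Of all alleles, 24.7%, 28.7%, 26.9% and 33.5% lay wholly below input in the 4 lines in order. The share that did so in all 4 was not counted, and the lines were set against the same input libraries. The values of -1.04, -1.38 and -1.88 in Neuro-2a, HEK-293T and PC-12 did not pass, with adjusted p of 0.118, 0.117 and 0.119. The SH-SY5Y call was lost without replicate 2 (adjusted p = 0.0620). Without replicate 1 the edgeR adjusted p was 0.0090 in SH-SY5Y, 0.0420 in Neuro-2a and 0.00330 in HEK-293T. The same fits called 54.9%, 41.3% and 31.8% of all alleles in these 3 lines. Other fragments of this SNP ran from -1.73 to 1.28 with no call, and those of the neighbouring CNNM2 SNP at 103034147 from -2.24 to 2.93 with no call and a smallest adjusted p of 0.109.

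At the remaining SNPs edgeR called no allele in any line. The SUFU SNPs ran from -1.41 to 0.57 (102527602, 13 values, 10 of them below 0) and from -1.51 to 0.66 (102533370, 15 values, 8 below 0), with smallest adjusted p of 0.118 and 0.187. The WBP1L SNP ran from -0.95 to 0.50 over 20 values, 8 of them below 0, with a smallest adjusted p of 0.0649. The SNP before BORCS7 at 102852578 had 6 values between -0.34 and 0.93 and no fragment with both alleles. Before AS3MT, 102869116 had 20 values from -2.16 to 0.50, 11 of them above 0. For its fragment that reaches the AS3MT window, allele 1 had log2 activities of -0.22, -0.33, 0.33 and 0.49 in the 4 lines in order, with adjusted p of 0.683, 0.920, 0.600 and 0.133. Allele 2 of that fragment had -2.16, 0.17, -0.38 and -0.83, with adjusted p of 0.542, 0.774, 0.925 and 0.835. In Neuro-2a its RNA libraries had 19.5, 0 and 87.4 CPM against 155, 162 and 163 CPM in input, all below the input and widely spread. Allele 1 of its 150-base fragment came closest to a call, with 1523 and 1684 CPM in PC-12 RNA against 1233, 1198 and 1182 CPM in input (log2 activity 0.41, adjusted p = 0.0702).

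The second comparison asked whether the alleles of a fragment differed. The allelic effect is the activity of allele 2 minus that of allele 1 on the log2 scale, so a positive value means more activity of allele 2. No allelic effect of the locus passed at an adjusted p of 0.05: edgeR called 0 of 10, 0 of 11, 0 of 11 and 0 of 12 fragments in the 4 lines in order, against 0.187%, 0.166%, 0% and 0% of all fragments. At an unadjusted p under 0.05 there were 2, 2, 0 and 0, against 10.9%, 13.5%, 4.13% and 7.24% of all fragments. DESeq2 called 2, 1, 0 and 0, against 12.7%, 4.49%, 1.82% and 10.7% of all fragments. Without replicate 1, edgeR called 4 of 10, 5 of 11 and 2 of 11 in the 3 lines with 3 RNA libraries, against 30.5%, 46.9% and 20.8% of all fragments. Of these locus calls, 2, 3 and 2 favoured allele 2, and 2, 2 and 0 favoured allele 1. The median absolute effect was 1.04, 0.99, 1.75 and 0.78 for the locus and 0.92, 0.75, 1.01 and 0.79 for all fragments. The effects with an unadjusted p under 0.05 lie at 3 SNPs, inside WBP1L, NT5C2 and CNNM2, and all favoured allele 2. Most fitted effects of the locus went the other way: 7, 7, 8 and 7 fragments favoured allele 1 in the 4 lines in order. Allele 2 was favoured by 3, 4, 3 and 5.

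At the WBP1L SNP 102776603, in the fragment with 150 bases in front, allele 2 gave 605, 262 and 445 CPM in Neuro-2a RNA against 362, 377 and 367 CPM in input. Allele 1 gave 633, 323 and 401 CPM in RNA against 763, 757 and 781 CPM in input. Allele 1 lay below its input in every library, while allele 2 overlapped with its input. In SH-SY5Y allele 2 gave 620, 346 and 595 CPM in RNA against 363, 377 and 367 CPM in input, and allele 1 gave 533, 491 and 560 CPM in RNA against 766, 759 and 780 CPM in input. The allelic effect was 0.99 ± 0.35 in Neuro-2a, with 0.99, 0.76 and 1.21 by library, and 0.99 ± 0.29 in SH-SY5Y, with 1.28, 0.55 and 1.14 (SE, 3 RNA and 3 input libraries each). The edgeR adjusted p of these effects was 0.444 and 0.355. The fragment was picked by its unadjusted p in these same libraries, so their common sign adds no separate evidence. In HEK-293T the libraries had 0.19, -0.94 and 0.70, with a fitted effect of -0.01, and in PC-12 0.89 and -0.17, with a fitted effect of 0.36. In these lines the sign differed between libraries. DESeq2 called the Neuro-2a effect (adjusted p = 5.9e-06), as it did 12.7% of all fragments there. Without replicate 1 edgeR's adjusted p was 0.0465 in Neuro-2a and 0.0375 in SH-SY5Y, where 30.5% and 46.9% of all fragments passed. The fragment with 50 bases in front carries the same alleles and had effects of -0.41, -0.02, -0.50 and -0.16 in the 4 lines, with adjusted p of at least 0.620.

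At the NT5C2 SNP 103146454, in the fragment with 50 bases in front, allele 2 gave 407, 633 and 1368 CPM in Neuro-2a RNA against 146, 154 and 164 CPM in input. Allele 1 gave 1562, 988 and 906 CPM in RNA against 1059, 1047 and 1047 CPM in input. Allele 2 lay above its input in every Neuro-2a library and allele 1 overlapped with its own. The effect in Neuro-2a was 2.11 ± 0.69, with 0.83, 2.12 and 3.36 by library (edgeR adjusted p = 0.444). The other lines, from SH-SY5Y to PC-12, had fitted effects of 2.03 ± 1.04, 1.75 ± 0.92 and 1.92 ± 1.92. In SH-SY5Y the libraries had -0.31, 2.81 and 3.27, in HEK-293T -0.20, 2.21 and 3.07, and in PC-12 -0.60 and 4.43. Replicate 1 was therefore near or below 0 in all but Neuro-2a and the other replicates were positive in every line. Without replicate 1, when 30.5%, 46.9% and 20.8% of all fragments passed, Neuro-2a had an effect of 2.74 (edgeR adjusted p = 0.0177), SH-SY5Y of 3.04 (0.000864) and HEK-293T of 2.64 (0.0127), and DESeq2 on all libraries called the Neuro-2a effect (0.0230). The activity of allele 2 alone in this fragment, given above, did not pass in any line.

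At the CNNM2 SNP 103034147, in the fragment with 150 bases in front, allele 2 gave 52.1, 436 and 389 CPM in SH-SY5Y RNA against 17.9, 79.5 and 22.0 CPM in input. Allele 1 gave 204, 51.8 and 34.6 CPM in RNA against 287, 368 and 262 CPM in input. Allele 2 was rare in the input and its input libraries differed from each other, with counts of 147, 551 and 194. The effect in SH-SY5Y was 5.19 ± 1.87, with 0.97, 6.01 and 6.43 by library (edgeR adjusted p = 0.355). Neuro-2a had 0.59 and 5.83 in replicates 1 and 3, HEK-293T 5.84 and 4.83 in replicates 2 and 3, and PC-12 -0.07 and 4.43 in replicates 1 and 3. An allele was at 0 in the library left out of each of Neuro-2a and HEK-293T, so the fitted effects of 6.25 and 4.04 there depend on how the fit takes a 0. In replicates 2 and 3 the values were large and positive, and in replicate 1 they were below 1. Without replicate 1, Neuro-2a had an effect of 9.70 (edgeR adjusted p = 0.128), SH-SY5Y of 6.55 (0.00333) and HEK-293T of 5.67 (0.0214). The same fits called 30.5%, 46.9% and 20.8% of all fragments. DESeq2 on all libraries called the SH-SY5Y effect (0.0166), against 4.49% of all fragments. The sign in HEK-293T rested on single libraries: the fitted effect was -0.23 without replicate 2, -0.71 without replicate 3 and 0.05 with limma-voom.

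Beside PCGF6, both fragments of 103300139 had a fitted allelic effect below 0 in all 4 lines, that is, less activity of allele 2. The effects ran from -1.72 to -1.03 in the 150-base fragment and from -4.14 to -1.04 in the 50-base fragment, with unadjusted p of at least 0.0804. In the 50-base fragment allele 2 was at 0 in 1 library of SH-SY5Y and of HEK-293T, where the fitted values were lowest. In the 150-base fragment replicate 1 had effects of 0.03 to 0.51 and the other replicates of -3.69 to -1.57. The remaining fragments had fitted effects between -5.11 and 1.75, inside SUFU and CNNM2 and between BORCS7 and AS3MT, with unadjusted p of at least 0.272. At both ends of this range an allele was at 0 in 1 library. The lowest was that of 102869116 (50-base fragment) in PC-12, where replicate 1 alone had -0.13. The highest was that of 103033891 (50-base fragment) in HEK-293T, where replicates 1 and 3 had 0.20 and 0.16.

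The third comparison asked whether an allele had the same activity in its 3 placements, where all 3 were present. This held for 2, 3, 2 and 4 SNP alleles of the locus in the 4 lines in order, and edgeR called a difference for 0 of them, against 4.63%, 9.51%, 2.64% and 5.60% of all SNP alleles tested. None of their unadjusted p was under 0.05, and the smallest was 0.147, for the SUFU SNP 102527602 in PC-12. There, allele 1 had log2 activities of -0.93, -0.41 and -0.08 with 50, 100 and 150 bases in front. Allele 1 of the AS3MT-side SNP 102869116, tested in all 4 lines, had values of -0.22, -0.50 and -0.27 in Neuro-2a and of 0.49, 0.48 and 0.41 in PC-12, in the same order of placements. Allele 2 of the WBP1L SNP had -0.58, -0.95 and 0.25 in Neuro-2a. The NT5C2, CNNM2 and PCGF6-side SNPs had no allele in all 3 placements and were not in this test.

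The last comparison asked whether the lines differed, in a fit over all RNA libraries. For activity, edgeR called 0 of 32 locus alleles, against 0% of 1436 alleles, and 1 had an unadjusted p under 0.05, against 2.79%. That allele was the central NT5C2 fragment. On the scale of the joint fit it gave 1600.4, 2621 and 2223 CPM in Neuro-2a RNA, while SH-SY5Y had 350, 312 and 718 CPM, HEK-293T had 388, 747 and 502 CPM and PC-12 had 535 and 606 CPM. Every Neuro-2a library was higher than every library of the other lines. The share of all alleles with such a separation was not counted, and this allele had already been called on the same Neuro-2a libraries. The p of 0.000653 for this allele was the 3rd smallest of all alleles. Its edgeR adjusted p was 0.313, so the difference between lines did not pass. For the allelic effect, edgeR called 0 of 10 fragments, against 0% of 514, and 0 had an unadjusted p under 0.05, against 0.778%. The smallest unadjusted p, 0.267, was that of the WBP1L fragment with 150 bases in front, so its effects in the neuroblastoma lines were not shown to differ from those in HEK-293T and PC-12.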

How the data were processed

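The authors deposited raw counts of reads for each allele of a fragment, in a table for each line whose columns are the alleles of its RNA and input libraries, per the file headers. The values are whole and not normalized. Per the labels' protocols, the line transfections and the input were each prepared as 3 biological replicates. The PC-12 counts hold RNA replicates 1 and 3 only, so replicate 2 is not used here. The submitters' processing notes name limma 3.40.6, and the aligner, counter and genome build were not given in the sources used here. PCR reads are not independent molecules, so depth covers counting error only.

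Counts were tested in R 4.3.3 with edgeR 4.0.16 (quasi-likelihood, trimmed mean of M values, mean count of at least 10, two-sided) on each line's whole table, and over all lines for line differences. DESeq2 1.42.0, limma 3.58.1, other minimum counts and left-out libraries were alternatives. The edgeR tests at their main settings were also run on simulated counts, and the alternatives were not. The simulated spread was set in advance and not taken from these libraries. No replicate pair matched within sampling noise: chi-square divided by its degrees of freedom was 40.3 to 48.9 for input pairs and 361 to 1526 for RNA pairs. Each activity fit took 1 spread per allele over RNA and input together, so its SE and p rest in part on the closer input libraries. The members and lists were chosen with earlier results of these data known. Every SNP is named. Values in every library are given for alleles called in any line and for fragments with an unadjusted allelic p under 0.05.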

Additional observations from a re-analysis of the deposited data

How the results depend on the processing

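With any 1 input library left out, edgeR called 0 locus alleles for activity in every line, so none of the 5 activity calls was kept. All alleles together then had 0 calls in Neuro-2a, HEK-293T and PC-12 and 3 of 1562 in SH-SY5Y, and the log2 activities of the called alleles moved little (1.98 to 2.02 for the NT5C2 allele in Neuro-2a). Leaving out 1 library in turn gave 0 to 13 activity calls in Neuro-2a (3 with all libraries), 0 to 12 in SH-SY5Y (2), 0 to 6 in HEK-293T (0) and 0 to 38 in PC-12 (0). The corresponding ranges were 0 to 4, 0 to 5, 0 to 2 and 0 to 11 for allelic effects, and 0 to 1 in SH-SY5Y and 0 to 3 in PC-12 for placements, where all libraries gave 0. The highest counts in each line came without replicate 1, where 41.3%, 54.9%, 31.8% and 90.1% of all alleles passed for activity and 30.5%, 46.9%, 20.8% and 89.3% of all fragments for allelic effects. The cause was not tested. In PC-12, leaving out an RNA library leaves 1, whose spread is taken from the input libraries. There, the allelic effect at the WBP1L SNP 102776603 (150-base fragment, 0.36 with both) was -0.17 without replicate 1 and 0.89 without replicate 3, and that at the NT5C2 SNP 103146454 (50-base fragment, 1.92 with both) was 4.43 without replicate 1 and -0.60 without replicate 3. The DESeq2 Wald test called 11, 8, 5 and 14 alleles for activity in the same order of lines, and 2 and 1 allelic effects in Neuro-2a and SH-SY5Y, against 421, 474, 370 and 643 alleles and 68 and 27 fragments over the whole tables. Limma-voom called 2 in PC-12, and limma with RNA counts of 0 as missing called 1 in Neuro-2a. With the replicate number as a replicate block, edgeR called 0 line differences for activity and 0 for allelic effects, and the adjusted p of the NT5C2 allele was 0.0705. DESeq2 size factors and minimum counts of 50 or none left every count of locus calls within 1.5 times of the main one.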
